A study of Mus musculus with 14 samples.

Results

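The question addressed here was whether the transcript differences between double conditional knockout and floxed mouse forebrain are the same at 2 embryonic stages. All 14 libraries of the series entered the comparison. They form 4 groups: 3 ff and 3 dcKO libraries of E12.5 telencephalon, and 4 ff and 4 dcKO libraries of E18.5 cerebral cortex (E, embryonic day; in the count tables the ff columns are called dfl). The ff libraries carry floxed Sbno1 and floxed Trp53. The dcKO libraries carry the same floxed alleles together with Emx1-Cre, a driver that acts in progenitors of the dorsal telencephalon and in the cells that descend from them. No group carried the driver alone, and no group had only 1 of the genes deleted, so the effects of the driver and of each deletion cannot be told apart. Cells outside the Emx1 lineage, such as interneurons that migrate in from the ventral telencephalon, keep both genes in this model. Stage, dissected tissue and count table change together. The comparison therefore set the dcKO minus ff difference inside one stage against the same difference inside the other. Nothing in the labels says whether embryos of a group came from separate litters, so the p-values measure the spread between these samples.

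The quantity tested was the interaction, which is log2 (dcKO/ff) at E18.5 minus log2 (dcKO/ff) at E12.5. A positive interaction (called higher) means that the dcKO to ff ratio was larger at E18.5, and a negative one (called lower) that it was smaller. Only this difference was tested. Effects inside a stage are given as descriptions. Abundance is in CPM, counts per 1000000 after scaling between libraries, which compares a gene between libraries but not genes of different length. Library values are listed in the order of replicates 9, 4, 7 (E12.5 ff), 2, 6, 10 (E12.5 dcKO), 7, 8, 17, 18 (E18.5 ff) and 2, 3, 12, 13 (E18.5 dcKO), numbers that only name libraries.

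Several libraries stood apart from their group. E12.5 dcKO replicates 6 and 10 held 606 and 625 CPM of 18 lens transcripts, mainly crystallins, against 3.69 to 4.49 CPM in the other 4 E12.5 libraries and 4.71 to 6.35 CPM at E18.5. The same 2 libraries were also the most alike of the 18 pairs of libraries within a group, with a chi-square per degree of freedom of 3.82. The other pairs reached 15.5 or more. The value of 3.82 is above sampling noise, but repeated libraries of the same embryo can exceed that noise too. It therefore cannot show whether replicates 6 and 10 came from separate embryos, which was not tested. They were counted as 2, as labelled. Their part in the E12.5 effects was examined only by leaving them out or summing them. E12.5 ff replicate 9 and E18.5 dcKO replicate 2 had 4.92 M and 5.98 M counts (M, 1000000), and the other 12 libraries had 42.0 M to 82 M. The choroid plexus transcript Ttr was nearly missing from E18.5 dcKO replicate 12 (1.82 TPM, with 1401 to 3203 TPM in the remaining libraries of that stage). The summed level of 22 diencephalic markers was 492 to 749 CPM in E12.5 ff and 730 to 758 CPM in dcKO. At E18.5 it was 38.7 to 50.5 CPM in ff and 48.4 to 60.9 CPM in dcKO. The sum of 28 choroid plexus and hem markers was 393.5 to 577 CPM in E12.5 ff and 644.5 to 675 CPM in dcKO, without overlap. At E18.5 that sum was 1017 to 1703 CPM in ff and 146 to 2083 CPM in dcKO. How far tissue content moved the E12.5 effects was not tested. Judged by the levels of Y-linked transcripts and Xist, all dcKO libraries were male. By the same measure ff replicate 7 at E12.5 and ff replicates 8 and 18 at E18.5 were female.

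During corticogenesis, apical progenitors (radial glia) divide at the ventricle under the control of Notch and hedgehog signals and transcription factors such as PAX6. They give rise to intermediate progenitors, which express Eomes, and to neurons of the subplate, the deep layers and then the upper layers. E12.5 lies early in this sequence, when proliferation dominates, and E18.5 near its end. Sbno1 encodes a homologue of the fly protein strawberry notch, Trp53 encodes p53, a transcription factor that drives cell cycle arrest and apoptosis, and Emx1 encodes a dorsal telencephalic homeodomain protein.

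The targeted genes were examined first. Sbno1 (ENSMUSG00000038095.16) was at 108, 113 and 95.3 CPM in E12.5 ff and at 76.5, 68.6 and 65.3 CPM in E12.5 dcKO. At E18.5 it was at 76.5, 76.3, 73.0 and 73.4 CPM in ff and at 72.9, 66.6, 74.6 and 71.0 CPM in the libraries labelled dcKO. The groups were apart at E12.5 and overlapped at E18.5, and the interaction was 0.51 (SE 0.10, adjusted p = 0.0032 by the quasi-likelihood test of edgeR, adjusted after Benjamini and Hochberg). Without E12.5 dcKO replicates 6 and 10 it was 0.39 (adjusted p = 0.12 in edgeR). In the deposited TPM, Sbno1 was at 14.7 to 18.4 in E18.5 ff and at 18.78 to 26.2 in E18.5 dcKO, apart and higher in dcKO, and on the log2(TPM + 1) scale its interaction was 1.09 (adjusted p = 0.0025 in limma). It was 0.29 with a trend with transcript length removed (adjusted p = 0.019 in edgeR). The log2 ratio of its count to TPM, centred in each library, was 1.54 to 1.74 in E18.5 ff and 1.21 to 1.53 in E18.5 dcKO. At E12.5 that ratio was 1.41 to 1.54 in ff and 1.61 to 1.70 in dcKO. Because Sbno1 counts were not clearly lower in it, the E18.5 group is named as the libraries labelled dcKO. The name follows the labels and is no test of genotype. Trp53 (ENSMUSG00000059552.14) had an effect of -0.23 at E12.5 and -0.24 at E18.5, with an interaction of -0.01 (SE 0.12, adjusted p = 0.97 in edgeR). Its groups overlapped at E12.5. At E18.5 they were apart, at 73.7 to 77.7 CPM in ff and 55.5 to 72.2 CPM in the libraries labelled dcKO. In TPM the E18.5 groups overlapped, at 79.5 to 86.8 in ff and 69.8 to 84.0 in the libraries labelled dcKO. Emx1 (ENSMUSG00000033726.9) was lower without overlap at both stages, with effects of -0.96 and -0.84 and an interaction of 0.11 (SE 0.10, adjusted p = 0.47 in edgeR). The floxed exons are not given in the sources used here, and whole-gene counts include exons that remain, so these values do not measure the deletion.

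Of 19327 genes tested, 3195 (16.5%) passed an adjusted p of 0.05 for the interaction. They comprised 1376 higher (7.12%) and 1819 lower (9.41%). At least 1.5-fold beside the threshold was reached by 1268 genes (6.56%), 703 higher (3.64%) and 565 lower (2.92%). Most calls combined effects of opposite sign, as did 9659 of the 19327 genes tested. Calls were selected on the difference between the stage effects, which by itself favours opposite signs and groups without overlap. The shares and medians below therefore only describe the calls, and unselected genes are no like baseline for them. In 1202 of the 1376 higher genes (87.4%) the fitted effect was negative at E12.5 and positive at E18.5. In 1468 of the 1819 lower genes (80.7%) the signs were the reverse. Effects inside a stage were not tested, so a sign can belong to a small effect with overlapping groups. Groups without overlap were seen in 1519 of the 3195 calls at E12.5 and in 2323 at E18.5. Among all genes 25.3% and 31.6% had them. The higher genes had a median effect of -0.27 at E12.5 and 0.35 at E18.5, the lower genes 0.14 and -0.35, and all tested genes 0.01 and -0.00. Effects of 1.5-fold or more at both stages in opposite directions were rarer, with 84 higher and 25 lower genes.

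The number of calls depended on the E12.5 dcKO libraries that stood apart. It was 1733 without replicate 6, 1690 without replicate 10, 1700 with both summed to 1 library, and 407 (1.91% of 21313 tested, 0.793% higher and 1.12% lower) without both. In the last fit 1 dcKO library represents E12.5 and is assumed to vary like the other groups. Of these 407 genes, 396 were also called with all libraries. Of the 109 named genes called, 46 lost their call in it. Counts for gene groups are followed by those from that fit.

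**Figure D1:**
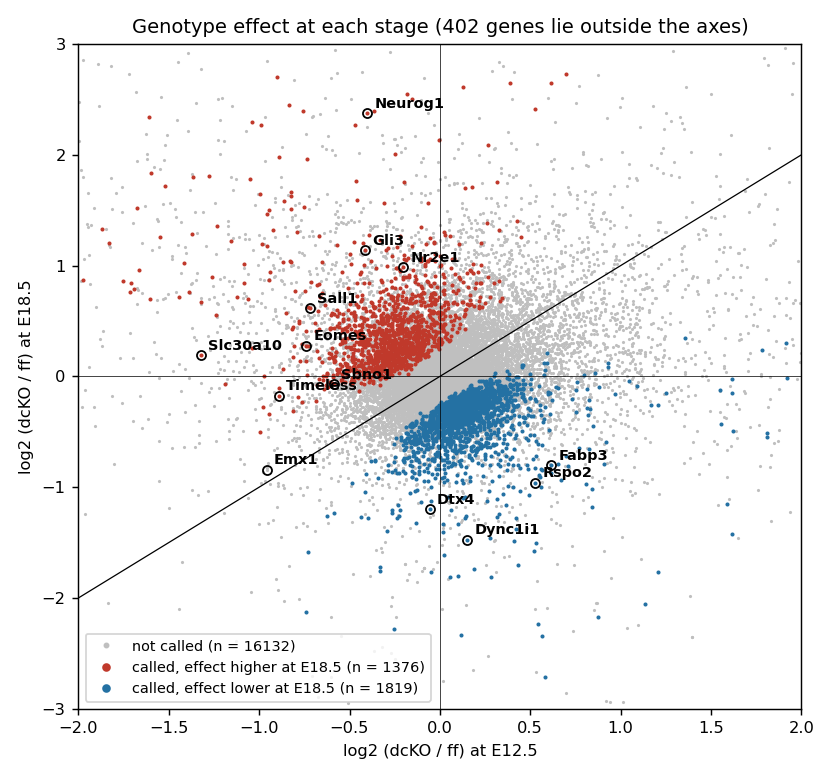
Effect of genotype on each tested gene at E12.5 (x axis, log2 dcKO/ff) and at E18.5 (y axis, log2 dcKO/ff); red and blue points are the 1376 higher and 1819 lower calls, grey points the genes not called, and 402 genes lie outside the axes. On the diagonal both effects are equal, as nearly for Emx1, while Gli3, Nr2e1 and Eomes lie at upper left and Fabp3 and Rspo2 at lower right.

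Apical progenitor genes were among the higher genes with the lowest p-values, with Nr2e1 first. Of 33 tested, 14 were higher and 1 was lower, against 7.12% and 9.41% of all genes, and the list's median interaction was 0.28 against -0.03 for all genes. Without E12.5 dcKO replicates 6 and 10 the counts were 9 and 0. Nr2e1 (ENSMUSG00000019803.12), which encodes the orphan receptor TLX that maintains neural progenitors, had 133, 127 and 139 CPM in E12.5 ff and 126, 110 and 111 CPM in dcKO. The E18.5 values were 24.5, 25.1, 23.3 and 24.6 CPM in ff and 46.3, 49.2, 48.2 and 48.8 CPM in the libraries labelled dcKO. Every E12.5 dcKO library was thus slightly below ff and every E18.5 library labelled dcKO about double, with an interaction of 1.19 (SE 0.08, adjusted p = 3.9e-06 in edgeR).

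Sox9, a transcription factor of radial glia and later astrocytes, had 103 to 119 CPM in E12.5 ff and 92.6 to 99.8 CPM in dcKO. By E18.5, ff had 33.3 to 37.2 CPM and the libraries labelled dcKO 58.2 to 65.1 CPM, an interaction of 1.01 (SE 0.09, adjusted p = 3.2e-05 in edgeR). Pax6, the regulator of dorsal progenitor identity, overlapped between the E12.5 groups at 115 to 123 CPM in ff and 114 to 121 CPM in dcKO. Its E18.5 level was 22.2 to 27.0 CPM in ff and 45.8 to 49.0 CPM in the libraries labelled dcKO, and its interaction was 0.93 (SE 0.09, adjusted p = 4.7e-05 in edgeR). The 3 genes remained past the threshold in all 30 alternative settings. Fabp7, a fatty acid binding protein of radial glia and the member named here after its values were seen, was the lower one at -0.49. With the length trend removed it was at -0.26 and did not pass (adjusted p = 0.18 in edgeR).

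Among receptors and effectors of Notch signalling, which holds progenitors undifferentiated, 9 of 29 genes were higher and 2 lower (2 and 1 without E12.5 dcKO replicates 6 and 10). The list's median was 0.17. The lower count was 4 without E12.5 ff replicate 4. Notch1, a receptor, had 254, 245 and 235 CPM in E12.5 ff and 217, 170 and 173 CPM in dcKO. In E18.5 ff there were 58.3, 74.0, 63.3 and 65.6 CPM, and in the libraries labelled dcKO 105, 117, 122 and 124 CPM. Both stages were without overlap and in opposite order, and the interaction was 1.23 (SE 0.13, adjusted p = 7.2e-05 in edgeR). Notch2 followed with 0.91 (SE 0.11), while Dtx4, which encodes a deltex family ubiquitin ligase, went the other way. It was at 124 to 138 CPM in E12.5 ff and 125.2 to 127 CPM in dcKO, and at 153 to 186 CPM in E18.5 ff and 63.9 to 80.0 CPM in the libraries labelled dcKO (interaction -1.14, SE 0.12, adjusted p = 5.4e-05 in edgeR). The canonical target genes Hes1 and Hes5 did not pass, at 0.47 and 0.17, but did with the length trend removed, at 0.60 and 0.33 (adjusted p = 0.0093 and 0.047 in edgeR).

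Hedgehog pathway genes were higher in 10 of 17 and lower in none, with a median of 0.57 (4 and 0 without E12.5 dcKO replicates 6 and 10). The pathway's receptors and GLI transcription factors led. Gli3, whose product acts mainly as a repressor of the pathway in the dorsal telencephalon, had 140, 136 and 155 CPM in E12.5 ff and 123, 103 and 98.4 CPM in dcKO. At E18.5 it had 17.2, 23.4, 20.03 and 21.1 CPM in ff and 44.9, 48.8, 44.0 and 42.7 CPM in the libraries labelled dcKO. No library crossed between groups, and the interaction of 1.55 (SE 0.14, adjusted p = 3.2e-05 in edgeR) was the largest of its list. Gli2 and the co-receptor gene Cdon each had 1.17 (SE 0.16 and 0.14). Gli1 was not called at 0.12, whereas Ptch1, which encodes the receptor and is a target of the pathway, was called at 0.58.

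The lists of cortical patterning factors and of the Wnt pathway were mixed. Patterning genes were higher in 6 of 25 and lower in 1 (3 and 0 without the 2 libraries), led by Pax6, Dmrt3 at 1.30 (SE 0.20) and Dmrta2 at 1.22 (SE 0.24), transcription factors of medial cortical progenitors. Wnt genes were higher in 5 of 32 and lower in 5 (2 and 2 without both), and the higher count was 3 without E12.5 dcKO replicate 6 or 10. Higher were the receptor gene Fzd8 at 0.99 (SE 0.11) and the repressor gene Tcf7l1 at 1.22 (SE 0.17). The lower calls were all secreted factors (Rspo2, Dkk3, Wnt3a, Wnt7b and Wnt8b), although Wnt7a, also a ligand, was higher at 0.38. Rspo2, a secreted enhancer of Wnt signalling made at the cortical hem, had 23.3, 16.8 and 26.3 CPM in E12.5 ff and 31.7, 31.9 and 31.4 CPM in dcKO. The E18.5 values were 15.5 to 20.1 CPM in ff and 8.75 to 9.43 CPM in the libraries labelled dcKO, so the order of the groups turned round (interaction -1.48, SE 0.18, adjusted p = 0.00016 in edgeR). Wnt8b, a ligand of the medial pallium, was at -1.22 (SE 0.30).

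Intermediate progenitor genes were higher in 10 of 20 and lower in 2, with a median of 0.41 (5 and 0 without E12.5 dcKO replicates 6 and 10). At E12.5, 10 of the 20 had dcKO values below ff without overlap and none above, where 25.3% of all genes had groups apart. Eomes (ENSMUSG00000032446.15), the defining transcription factor TBR2, had 153, 145 and 139 CPM in E12.5 ff and 91.8, 85.2 and 83.8 CPM in dcKO. By E18.5, ff had 46.3, 56.0, 47.4 and 48.5 CPM and the libraries labelled dcKO 62.1, 60.4, 58.3 and 59.8 CPM. Its large E12.5 deficit and small E18.5 excess gave an interaction of 1.02 (SE 0.09, adjusted p = 3.2e-05 in edgeR).

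Neurog1, a proneural factor, had 17.9 to 21.1 CPM in E12.5 ff and 13.6 to 15.3 CPM in dcKO. At E18.5 it was scarce, at 0.07 to 0.16 CPM in ff and 0.56 to 0.77 CPM in the libraries labelled dcKO, and its interaction was 2.78 (SE 0.26, adjusted p = 3.2e-05 in edgeR). Chd7, which encodes a chromatin remodeler, was at 1.08 (SE 0.13). The 2 lower members, Neurod1 at -0.57 and Hes6 at -0.37, encode factors that act as cells differentiate into neurons, and both are named here after their values were seen. With the length trend removed Hes6 was at -0.24 and did not pass (adjusted p = 0.15 in edgeR).

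Cell cycle genes were called on the higher side alone. For mitosis, which had the largest share of members called among the 37 lists, 26 of 30 genes were higher and none lower, and all 30 interactions were positive (median 0.72). The count was 15 without E12.5 dcKO replicates 6 and 10 and 30 when a trend with transcript length was removed. The summed level of the 30 genes was 3806 to 4621 CPM in E12.5 ff and 3321 to 3421 CPM in dcKO, and 636 to 812 CPM in E18.5 ff and 985 to 1036 CPM in the libraries labelled dcKO. Both stages were without overlap, below ff at the first and above ff at the second. In bulk tissue, fewer dividing cells and less of these transcripts per dividing cell cannot be told apart.

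Mki67, the proliferation antigen gene, had 383, 401 and 404 CPM in E12.5 ff and 288, 230 and 226 CPM in dcKO. Its E18.5 level was 56.0, 85.1, 65.3 and 68.5 CPM in ff and 106, 101, 108 and 99.6 CPM in the libraries labelled dcKO. It is one of the genes with 1.5-fold effects in opposite directions, and its interaction was 1.27 (SE 0.16, adjusted p = 0.00021 in edgeR). Aspm, which encodes a spindle pole protein needed for symmetric progenitor division, was at 1.04 (SE 0.13). Kif20a, a cytokinesis kinesin gene, overlapped at E12.5 (117 to 141 CPM in ff, 120 to 124 CPM in dcKO). It was clearly separate at E18.5 (16.6 to 23.5 CPM in ff, 37.8 to 46.4 CPM in the libraries labelled dcKO), with an interaction of 1.14 (SE 0.14).

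For S phase and replication, 17 of 30 genes were higher and none lower (median 0.63), and 9 and 0 without the 2 libraries. Dtl, which directs degradation of the licensing factor CDT1, was at 0.96 (SE 0.11) and Hells, a chromatin remodeler gene, at 0.95 (SE 0.13). Timeless, a replication fork protein gene, differed from them in where its effect lay. It had 61.1 to 63.4 CPM in E12.5 ff and 32.7 to 34.2 CPM in dcKO, and overlapping values of 12.9 to 15.5 CPM in ff and 12.3 to 13.4 CPM in the libraries labelled dcKO at E18.5 (interaction 0.72, SE 0.10, adjusted p = 0.00034 in edgeR).

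Mitotic genes are commonly controlled through the cell cycle homology element, to which the DREAM complex binds. Upstream stretches of 2 mitosis genes are shown because both hold its core TTTGAA, here in capitals. They were read from RefSeq (GRCm38.p6, 5′ to 3′ on the gene's strand), Mki67 at chr7:135716380-135716499 on the minus strand and Cdc20 at chr4:118437344-118437463 on the minus strand.
Mki67: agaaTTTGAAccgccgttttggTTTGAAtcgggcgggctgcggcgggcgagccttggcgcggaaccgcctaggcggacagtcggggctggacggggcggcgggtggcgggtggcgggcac
Cdc20: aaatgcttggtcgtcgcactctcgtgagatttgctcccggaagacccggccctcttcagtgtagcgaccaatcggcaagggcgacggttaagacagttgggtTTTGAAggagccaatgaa
TTTGAA on either strand lay in the 250 bases before the start of 9 of the 26 mitosis genes with a promoter entry (34.6%) and of 16.0% of all 32851 promoters. A gene was counted if any of its promoter entries held the motif, whereas all promoters were counted singly. The shares are therefore not like for like. Among the members called, 6 of 22 with an entry held it. The motif was chosen after the values were seen, and a match is a description of the letters.

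Genes of the ventral telencephalon and of interneurons, cells that lie largely outside the Emx1 lineage, were higher in 21 of 39 and lower in 1, with a median of 0.62. The higher count was 12 without E12.5 dcKO replicate 6 and 5 without both replicates 6 and 10. Here the median effect was 0.01 at E12.5 and 0.72 at E18.5. At E18.5, 29 of the 39 were above ff without overlap and 2 below, where 31.6% of all genes had groups apart. The summed level was 2013 to 2090 CPM in E18.5 ff and 2845 to 3037 CPM in the libraries labelled dcKO. At E12.5 it was 1876 to 2388 CPM in ff and 1872 to 2127 CPM in dcKO.

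Isl1, a factor of striatal projection and cholinergic neurons, had 57.1, 47.4 and 51.2 CPM in E12.5 ff and 57.4, 49.5 and 49.0 CPM in dcKO. In E18.5 ff there were 24.1, 22.8, 21.1 and 22.4 CPM, and in the libraries labelled dcKO 49.1, 42.1, 43.9 and 37.3 CPM. The groups overlapped at E12.5 and not at E18.5, with an interaction of 0.90 (SE 0.13, adjusted p = 0.00043 in edgeR). Six3, another ventral factor gene, had 1.07 (SE 0.15). Calb2, the calretinin gene of some interneurons and Cajal-Retzius cells, was the lower member at -0.86 (SE 0.20). How far the share of ventral cells in the dissected tissue moved with these values, or with the progenitor and cell cycle genes, was not tested.

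**Figure D2:**
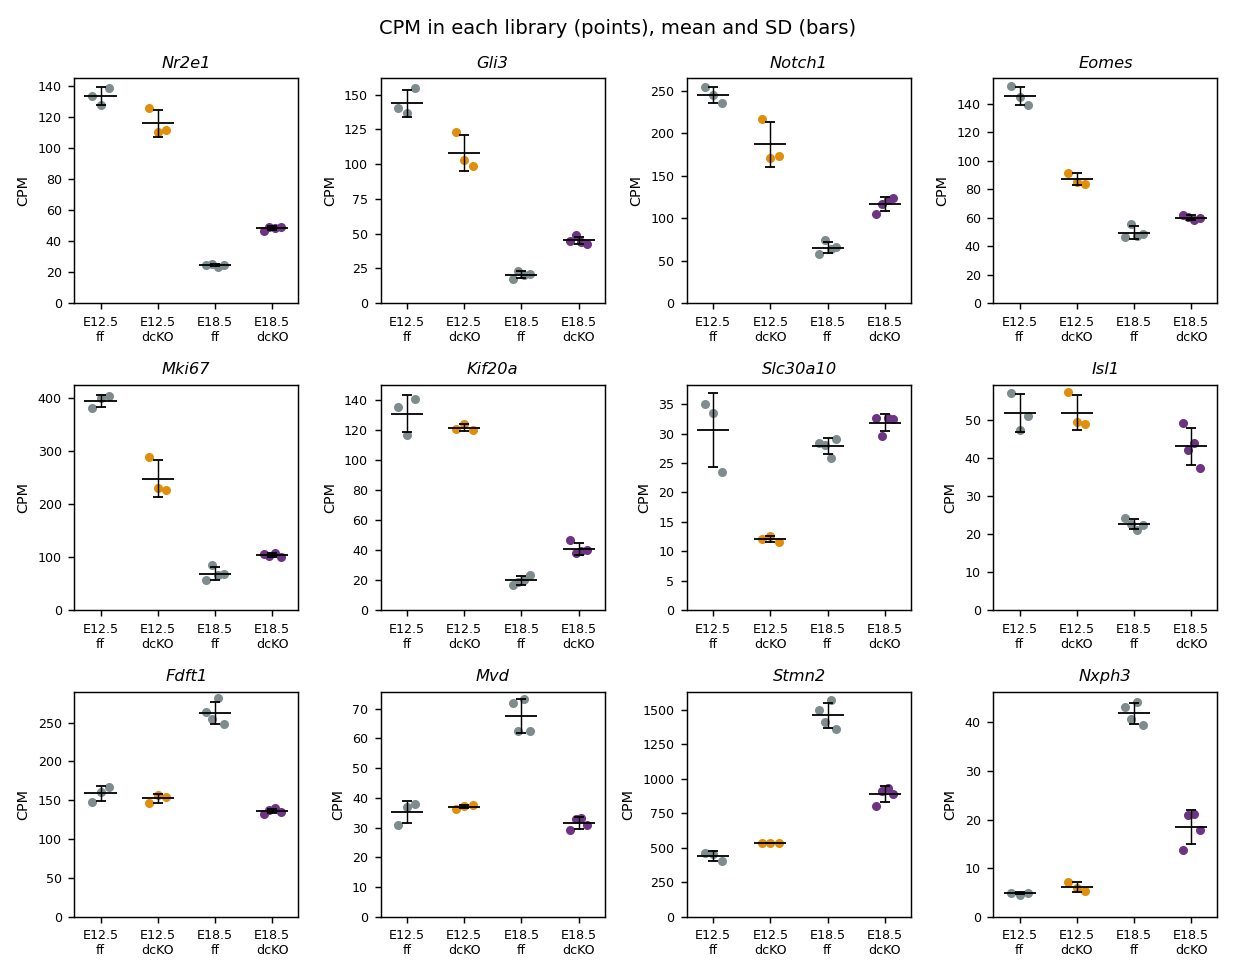
CPM of 12 genes in each library (points) with the mean (long bar) and SD (whiskers) of the 3 or 4 libraries of each group; each y axis starts at 0. In Nr2e1, Gli3, Notch1, Eomes and Mki67 the dcKO libraries lie below ff at E12.5 and above ff at E18.5, whereas in Fdft1, Mvd, Stmn2 and Nxph3 the gap at E18.5 is downward.

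Neuronal lists differed among themselves. Of 33 pan-neuronal and synapse genes, 11 were lower and none higher (median -0.21, and -0.44 with 5 lower without E12.5 dcKO replicates 6 and 10). At E18.5, 23 of them lay below ff without overlap and 1 above, where 31.6% of all genes had groups apart. Stmn2, a microtubule regulator gene of growing axons, had 464, 453 and 401 CPM in E12.5 ff and 533, 533 and 536 CPM in dcKO. At E18.5 it had 1497, 1408, 1569 and 1363 CPM in ff and 803, 912, 935 and 892 CPM in the libraries labelled dcKO. All dcKO libraries were thus above ff at the first stage and below it at the second (interaction -1.002, SE 0.10, adjusted p = 4.7e-05 in edgeR). Tubb3, neuronal tubulin, was at -0.85 (SE 0.11), Nefl, a neurofilament gene, at -0.82 (SE 0.11), and the related Stmn4 at -0.90 (SE 0.09).

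Deep-layer genes were lower in 8 of 25 and higher in 2, and upper-layer genes lower in 8 of 24 and higher in 1. Their medians were 0.08 and -0.08. Without E12.5 dcKO replicates 6 and 10 each list had 2 lower calls and no higher one, and the medians were -0.13 and -0.27. Ldb2, a cofactor gene of deep-layer neurons, had 17.2 to 21.1 CPM in E12.5 ff and 17.03 to 20.7 CPM in dcKO. The E18.5 values were 95.6 to 113 CPM in ff and 59.5 to 63.1 CPM in the libraries labelled dcKO (interaction -0.77, SE 0.12). Bcl11b, which encodes CTIP2 of corticospinal neurons and is also strong in the striatum, went the other way. It had 157 to 179 CPM in E12.5 ff and 107 to 143 CPM in dcKO, then 268 to 352 CPM in E18.5 ff and 385 to 440 CPM in the libraries labelled dcKO (interaction 0.88, SE 0.15). Among upper-layer genes Dok5, an adaptor protein gene, was at -1.43 (SE 0.22) and Pou3f2, a POU factor gene of upper-layer neurons, at -0.55 (SE 0.13). The exception was Plxnd1, a semaphorin receptor gene, at 0.62 (SE 0.13).

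Subplate genes were lower in 5 of 17 and higher in 1 (2 and 0 without the 2 libraries). Nxph3, a neurexin ligand gene, had 4.92, 4.56 and 4.98 CPM in E12.5 ff and 7.25, 5.94 and 5.27 CPM in dcKO. By E18.5, ff had 43.2, 40.7, 44.3 and 39.5 CPM and the libraries labelled dcKO 13.7, 21.0, 21.1 and 17.9 CPM. The groups were apart at both stages, with a small excess at E12.5 and a larger deficit at E18.5, and an interaction of -1.52 (SE 0.19, adjusted p = 0.00016 in edgeR). Nr4a2, a nuclear receptor gene of the subplate, was at -1.58 (SE 0.25) and Tmem163, a zinc transporter gene, at -0.69 (SE 0.12). Of the Cajal-Retzius list 17.6% was called in either direction, near the 16.5% of all genes. Cajal-Retzius genes had a median of 0.29 and were higher in 2 of 17 and lower in 1 (none without the 2 libraries, and 4 higher without E18.5 ff replicate 18), among them Reln, the secreted signal of these cells, at 0.75 (SE 0.14).

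Axon guidance genes were higher in 9 of 39 and lower in 3, with a median of 0.10. Without E12.5 dcKO replicates 6 and 10 none was higher, 2 were lower and the median was -0.04. The higher count was 5 without replicate 6 or 10 of these alone, and the lower count was 5 without E12.5 ff replicate 4. Sema3c, a secreted semaphorin gene, overlapped at E12.5 (31.6 to 40.6 CPM in ff, 32.5 to 41.8 CPM in dcKO). At E18.5 it was at 92.5 to 124.98 CPM in ff and 37.9 to 44.4 CPM in the libraries labelled dcKO, an interaction of -1.42 (SE 0.16, adjusted p = 0.00015 in edgeR). Dync1i1, the neuronal dynein intermediate chain gene and among the genes with the lowest p of all, had 6.03 to 7.30 CPM in E12.5 ff and 6.70 to 8.41 CPM in dcKO. At E18.5 its values were 172 to 195 CPM in ff and 49.8 to 74.5 CPM in the libraries labelled dcKO (interaction -1.63, SE 0.17, adjusted p = 9e-05 in edgeR). Ion channel genes were lower in 4 of 32 and higher in 2, near the shares of all genes (3 and 0 without the 2 libraries). Lower counts of the neuronal lists were smaller on the log2(TPM + 1) scale, on which all genes shifted by a median of 0.18. On it 4 pan-neuronal genes were lower and none higher, 4 deep-layer genes lower and 4 higher, and 2 upper-layer genes lower and 4 higher, in limma.

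Cholesterol biosynthesis genes were lower in 19 of 26 and higher in none, and all 26 interactions were negative (median -0.54). Without E12.5 dcKO replicates 6 and 10 the lower count was 9. The list's median effect was -0.13 at E12.5 and -0.67 at E18.5. At E18.5 all 26 genes lay below ff without overlap, where 31.6% of all genes had groups apart. The summed level at E18.5 was 3933 to 4456 CPM in ff and 2322 to 2655 CPM in the libraries labelled dcKO. Fdft1 (ENSMUSG00000021273.12), squalene synthase, had 148, 160 and 168 CPM in E12.5 ff and 146, 157 and 154 CPM in dcKO. Its E18.5 level was 264, 255, 282 and 248 CPM in ff and 132, 137, 140 and 135 CPM in the libraries labelled dcKO. The E12.5 groups overlapped and the E18.5 values differed about 2-fold (interaction -0.88, SE 0.08, adjusted p = 3.9e-05 in edgeR).

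Mvd, which makes isopentenyl diphosphate, was at 30.9 to 38.1 CPM in E12.5 ff and 36.4 to 37.5 CPM in dcKO. At E18.5 it was at 62.5 to 73.4 CPM in ff and 29.1 to 33.3 CPM in the libraries labelled dcKO (interaction -1.14, SE 0.11, adjusted p = 4.7e-05 in edgeR). Hmgcs1, the synthase that makes HMG-CoA, had -0.85 (SE 0.09). Sterol genes of this kind are controlled by SREBP2 together with the factor NF-Y, which binds CCAAT. The 120 bases before the Hmgcs1 start are shown because they hold that motif close to the start, in capitals on the opposite strand (RefSeq, GRCm38.p6, chr13:119690231-119690350, plus strand).
Hmgcs1: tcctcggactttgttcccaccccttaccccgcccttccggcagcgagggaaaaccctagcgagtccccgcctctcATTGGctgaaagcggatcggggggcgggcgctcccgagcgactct
CCAAT on either strand lay in the 250 bases before the start in 17 of the 18 cholesterol genes with an entry (94.4%). It lay in 33.8% of all promoters. Here too a gene was counted over all its entries and the promoters singly, so the shares are not like for like. This motif too was chosen after the values were seen.

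Nuclear genes of oxidative phosphorylation were lower in 22 of 36 and higher in none (median -0.43, with 0 lower without E12.5 dcKO replicates 6 and 10). This count moved with single libraries. It was 9 without E12.5 ff replicate 4 or E12.5 dcKO replicate 6, 5 without E12.5 dcKO replicate 10, and 12 without E18.5 ff replicate 17 or E18.5 dcKO replicate 13. Ndufb8, a complex I subunit gene, had 71.7 to 88.5 CPM in E12.5 ff and 97.8 to 106 CPM in dcKO, and at E18.5 it had 84.1 to 99.5 CPM in ff and 67.6 to 90.4 CPM in the libraries labelled dcKO (interaction -0.60, SE 0.14).

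Cytosolic ribosomal protein genes, many with near-identical pseudogenes, were lower in 5 of 64 (9.41% of all genes were lower) and all 64 interactions were negative. The count was 0 without E12.5 ff replicate 4, E12.5 dcKO replicate 6, 10 or both, E18.5 ff replicate 17 or E18.5 dcKO replicate 13, and 1 or 2 without E18.5 dcKO replicate 2, E12.5 ff replicate 9 or E18.5 ff replicate 7. It was 23 without E12.5 ff replicate 7 and 34 without E18.5 dcKO replicate 3. Both groups hold short transcripts, and the E12.5 effect moved with transcript length. Across 17084 genes its Spearman correlation with the log2 ratio of count to TPM, a measure of length, was -0.43, that of the E18.5 effect -0.01 and that of the interaction 0.28. These correlations are across genes, which are not independent replicates. Of the E12.5 libraries, ff replicate 4 (0.46) and dcKO replicates 6 (-0.42) and 10 (-0.48) deviated most with length. Of the 4271 shortest genes 51 were higher and 542 lower, and of the 4271 longest 737 were higher and 218 lower. With the length trend removed, oxidative phosphorylation had 8 lower genes and ribosomal proteins 0, whereas mitosis had 30 higher and cholesterol biosynthesis 21 lower.

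**Figure D3:**
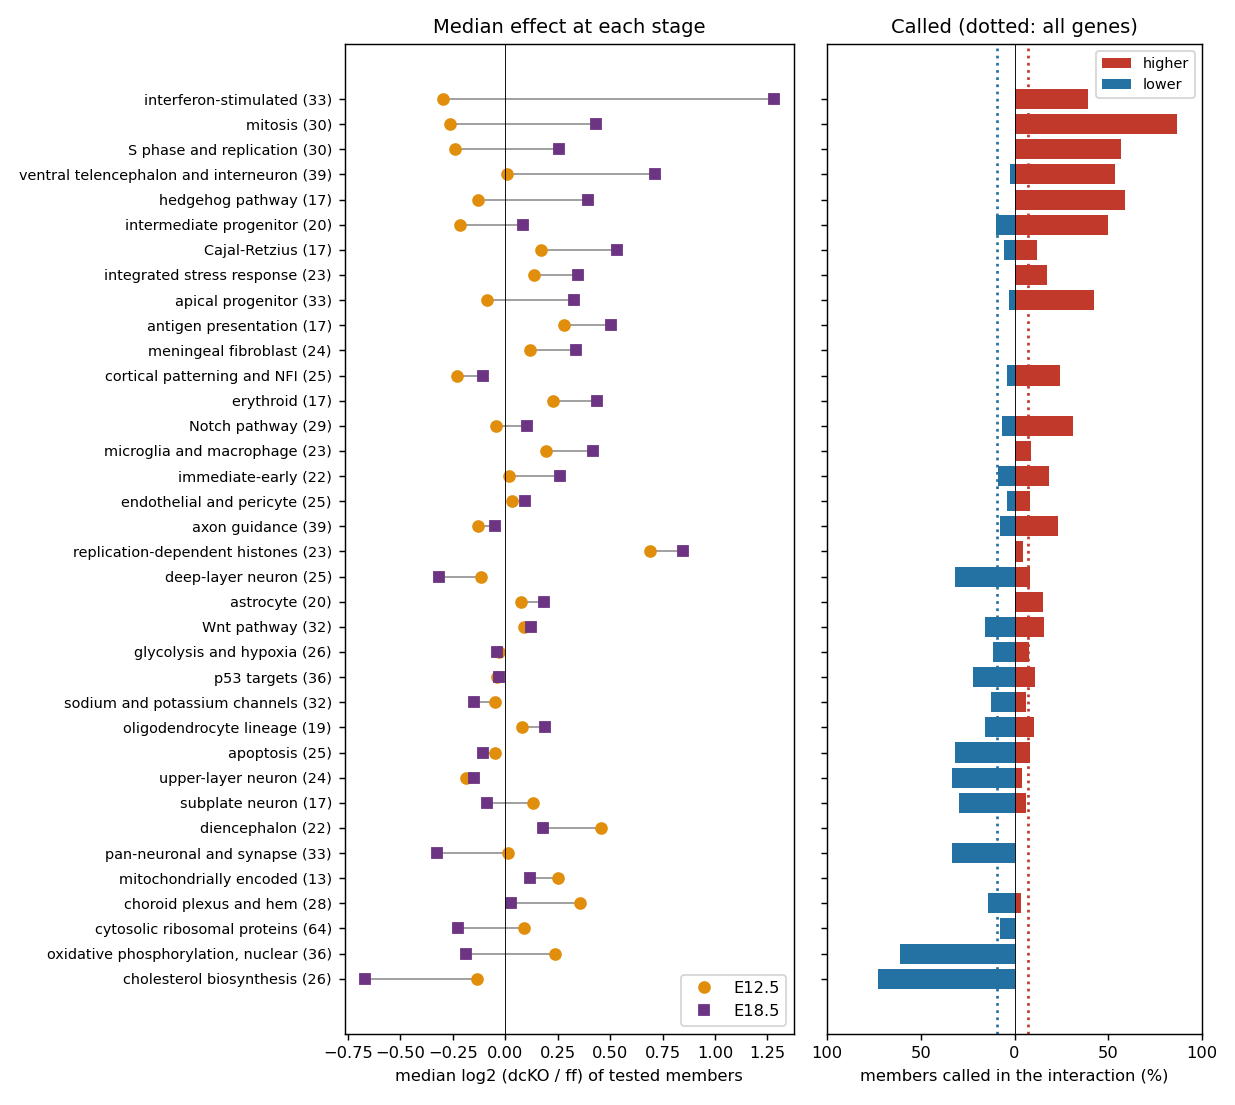
Left, the median log2 (dcKO/ff) of each gene list at E12.5 (circles) and E18.5 (squares), ordered by the median interaction, with the number of tested genes in brackets. Right, the percent of members called higher (red) or lower (blue), with dotted lines at the 7.12% and 9.41% of all genes; mitosis reaches furthest on the higher side and cholesterol biosynthesis on the lower.

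Targets of p53 were split. Of 36 tested, 8 were lower and 4 higher, with a median of 0.01 (1 and 0 without E12.5 dcKO replicates 6 and 10), and the lower count was 5 without E12.5 dcKO replicate 10 alone. Bbc3, the pro-apoptotic gene PUMA, had 9.24 to 14.95 CPM in E12.5 ff and 11.1 to 12.5 CPM in dcKO. In E18.5 ff there were 24.96 to 28.7 CPM, and in the libraries labelled dcKO 15.02 to 16.5 CPM (interaction -0.81, SE 0.16). Aen, a nuclease gene induced by p53, was at -0.41 (SE 0.07). Gtse1, which is also a G2 and mitosis gene, was on the higher side at 0.74 (SE 0.14). The classic targets Cdkn1a and Mdm2 were not called, at -0.04 and 0.06. On the log2(TPM + 1) scale 6 targets were higher and none lower in limma.

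Apoptosis genes were lower in 8 of 25 and higher in 2. The lower count was 0 without E12.5 dcKO replicates 6 and 10. It was 3 without E12.5 dcKO replicate 6 or 10, E18.5 ff replicate 17 or E18.5 dcKO replicate 13. It was 4 without E12.5 ff replicate 4 or E18.5 ff replicate 7, and 5 without E12.5 dcKO replicate 2 or E18.5 dcKO replicate 12. On the log2(TPM + 1) scale 3 were higher and none lower in limma.

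Stress and metabolic lists were examined next. The share called in either direction was 17.4% for the integrated stress response list, near the 16.5% of all genes. For immediate-early genes it was 27.3%. Integrated stress response genes were higher in 4 of 23 and lower in none (1 and 0 without the 2 libraries), and the higher count was 2 without E12.5 dcKO replicate 6 or 10 or E18.5 ff replicate 7 or 18. Atf5, a stress transcription factor gene, had 39.5 to 54.1 CPM in E12.5 ff and 51.0 to 55.5 CPM in dcKO. At E18.5 it had 25.4 to 32.7 CPM in ff and 51.2 to 63.1 CPM in the libraries labelled dcKO (interaction 0.78, SE 0.15). Of 26 glycolysis and hypoxia genes 2 were higher and 3 lower, near the shares of all genes, with a median of 0.01 (1 and 0 without the 2 libraries). The hexokinase genes were called in opposite directions, with Hk2, the form of proliferating cells, at 1.09 (SE 0.14) and Hk1, the main form in neurons, at -0.52 (SE 0.12), which did not pass without the 2 libraries (adjusted p = 0.0995 in edgeR). Of 22 immediate-early genes, 4 were higher and 2 lower (1 and 1 without both). Jun, the AP-1 subunit gene, led at 0.85 (SE 0.10), and the higher count was 2 without E12.5 dcKO replicate 6 or 10, E18.5 ff replicate 7 or 17, or E18.5 dcKO replicate 2, 3 or 13. The replication-dependent histone gene H3c3, one of many near-identical copies, was the only call of 23 in its list, at 2.42 (SE 0.51), and none was called without E12.5 dcKO replicates 6 and 10.

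Interferon-stimulated genes had the largest median interaction of the lists, 1.57, with 13 of 33 higher and none lower. This rested on few libraries. The higher count was 10 and the median 1.14 without E18.5 dcKO replicate 3, and 19 and 1.81 without E18.5 dcKO replicate 12. The count was 3 without E12.5 ff replicate 7, 4 without E12.5 dcKO replicate 6 or 10, 7 without E18.5 ff replicate 17, 8 without E18.5 ff replicate 8, 1 without E12.5 dcKO replicates 6 and 10, and 1 in male libraries alone. Ifit1, an antiviral RNA-binding protein gene, had 0, 0.54 and 1.29 CPM in E12.5 ff and 0.40, 0.36 and 0.12 CPM in dcKO. The E18.5 values were 0.39, 0.17, 0.23 and 0.53 CPM in ff and 0.46, 10.3, 0.73 and 2.34 CPM in the libraries labelled dcKO. Replicate 3 alone stood far above the others, and the groups overlapped at both stages. The interaction of 4.80 (SE 1.43, adjusted p = 0.041 in edgeR) passed in 12 of 30 settings. The fit without replicate 3 was among them.

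Usp18, a protease gene that limits interferon signalling, was also highest in replicate 3. It had 7.35 CPM there and 0.78 to 2.65 CPM in the other libraries labelled dcKO. Its call too was kept without replicate 3. Steadier members were Dtx3l, a ubiquitin ligase gene that passed in all 30 settings at 1.51 (SE 0.28), and Rigi, the RNA sensor gene. Rigi had 4.30 to 5.25 CPM in E12.5 ff and 3.27 to 4.03 CPM in dcKO, and 3.64 to 4.84 CPM in E18.5 ff and 5.04 to 11.8 CPM in the libraries labelled dcKO. Both stages were without overlap, and its interaction was 1.37 (SE 0.31, adjusted p = 0.0087 in edgeR).

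Interferon-stimulated response elements hold repeats of GAAA, and the factor ISGF3 binds them. Stretches of 120 bases before the start of 2 members are shown because each carries more than 1 match to GAAA, any 2 bases and GAAA, in capitals (RefSeq, GRCm38.p6, Isg15 at chr4:156200819-156200938 on the minus strand, Ifit1 at chr19:34640769-34640888 on the plus strand, where the matches lie on the opposite strand).
Isg15: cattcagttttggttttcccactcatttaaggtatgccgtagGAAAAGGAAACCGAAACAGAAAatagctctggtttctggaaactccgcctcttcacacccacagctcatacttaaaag
Ifit1: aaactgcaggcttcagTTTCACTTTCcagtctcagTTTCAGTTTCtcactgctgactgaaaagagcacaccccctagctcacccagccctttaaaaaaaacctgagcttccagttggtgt
The motif, on either strand, lay in the 250 bases before the start of 13 of the 23 interferon genes with an entry (56.5%) and of 2.98% of all promoters. As before, a gene was counted over all its entries and the promoters singly. The motif was chosen after the values were seen. Among the members called, 5 of 11 with an entry held it.

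Markers of cells outside the neuronal lineage were read against the 7.12% higher and 9.41% lower of all genes. Microglial genes were higher in 2 of 23 (0 without E12.5 dcKO replicates 6 and 10, 4 without E18.5 ff replicate 18). Their summed level was above ff without overlap at both stages. It was 132 to 147 CPM in E12.5 ff and 154 to 166 CPM in dcKO. At E18.5 it was 205 to 269 CPM in ff and 275 to 332 CPM in the libraries labelled dcKO. Astrocyte genes were higher in 3 of 20 and lower in none (1 and 1 without the 2 libraries), led by Fgfr3, a receptor gene also strong in caudal progenitors, at 0.98 (SE 0.16). That count was 1 without E12.5 ff replicate 4, E12.5 dcKO replicate 6 or 10, E18.5 ff replicate 7 or 17, or E18.5 dcKO replicate 3, 12 or 13. Oligodendrocyte lineage genes were higher in 2 of 19 and lower in 3, with Gpr17, a gene of immature oligodendrocytes, at 0.78 (SE 0.16) and Olig2, the lineage factor gene, at -0.48 (SE 0.12). Called were 26.3% of this list against 16.5% of all genes, and none without the 2 libraries.

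Endothelial and pericyte genes were higher in 2 of 25 and lower in 1 (0 and 1 without E12.5 dcKO replicates 6 and 10, 4 higher without E18.5 ff replicate 18), the lower one being Slco1c1, a thyroid hormone transporter gene, at -1.02 (SE 0.15). No gene was called in edgeR among 22 diencephalic, 24 meningeal, 17 erythroid, 17 antigen presentation and 13 mitochondrially encoded genes. Of these 93, 13 had an unadjusted p under 0.05, DESeq2 called 7, limma-voom 2 and limma on log2(TPM + 1) 1. The meningeal list had 3 higher without E12.5 ff replicate 9 and the erythroid list 3 lower without E18.5 dcKO replicate 3. The diencephalic list had 2 higher and 1 lower without E18.5 ff replicate 8, 1 and 1 without E12.5 ff replicate 7, 1 higher without E18.5 dcKO replicate 13, and 2 lower without E12.5 ff replicate 4, where its median went from -0.16 to -0.68. At most 1 antigen presentation gene and no mitochondrially encoded gene was called with 1 library left out. Choroid plexus and hem genes were lower in 4 of 28 and higher in 1 (2 and 0 without the 2 libraries), and the lower ones were Msx3, Rspo2, Wnt3a and Wnt8b.

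The genes with the largest interactions were mostly scarce and set by few libraries. On the lower side Crybb3, a lens crystallin gene, had 66.3 and 67.9 CPM in E12.5 dcKO replicates 6 and 10 and at most 0.55 CPM in every other library. Crybb1 had 57.4 and 60.4 CPM in the same 2 and at most 2.62 CPM elsewhere. Aldh1a1, a retinaldehyde dehydrogenase gene, had 24.6 and 23.1 CPM there and at most 4.87 CPM elsewhere. Their interactions of -8.18 (SE 2.27), -7.08 (SE 1.69) and -6.80 (SE 1.97) were 0.44, -1.30 and -0.46 without those 2 libraries, with adjusted p of 0.83, 0.27 and 0.87 in edgeR. Cryba4 and Capn3 showed the same pattern. An exception was Dsc3, a desmosomal cadherin gene, with 0 to 0.19 CPM in E12.5 ff and 0.16 to 0.42 CPM in dcKO, and with 2.47 to 5.01 CPM in E18.5 ff and 0.15 to 0.38 CPM in the libraries labelled dcKO. Its interaction was -4.51 (SE 0.58, adjusted p = 0.00021 in edgeR) and passed in all 30 settings.

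**Figure D4:**
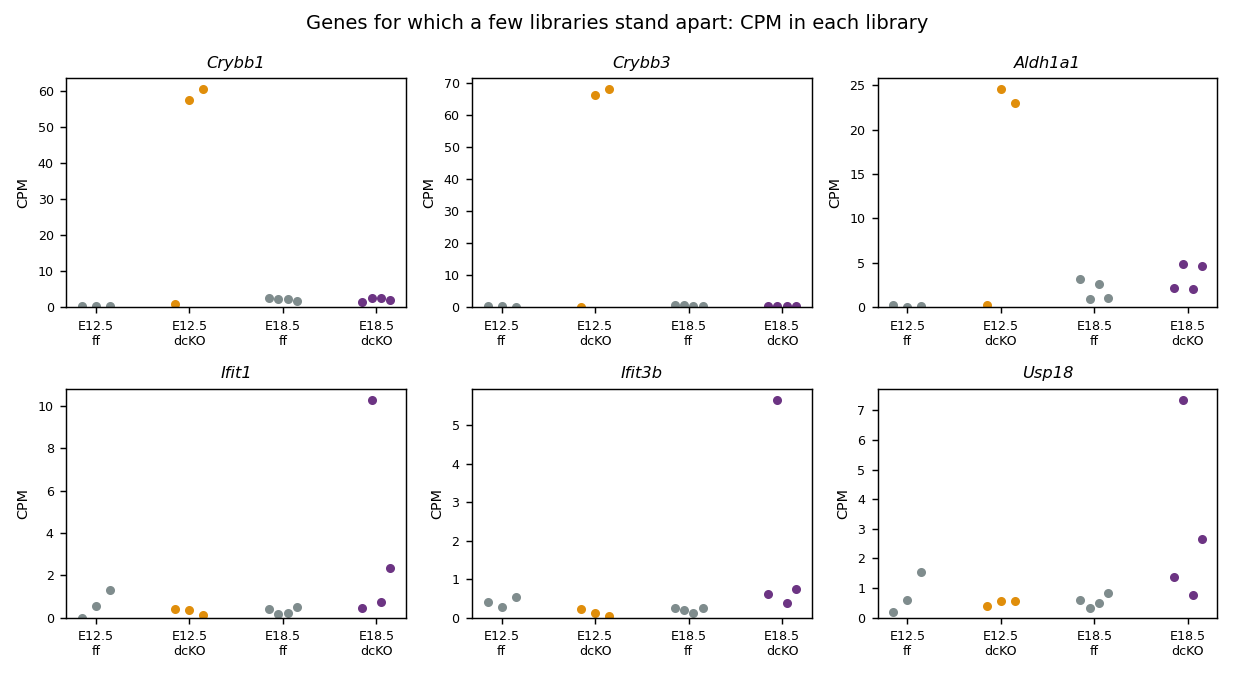
CPM of 6 genes in each library (points, no summary drawn), with the y axis starting at 0. Crybb1, Crybb3 and Aldh1a1 are high in 2 of the 3 E12.5 dcKO libraries, replicates 6 and 10, and Ifit1, Ifit3b and Usp18 in 1 of the 4 E18.5 libraries labelled dcKO, replicate 3.

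On the higher side Tgm4, a transglutaminase gene, and Sptbn5, a spectrin gene, had their highest E12.5 value in the shallow ff replicate 9, at 4.10 and 2.87 CPM against at most 0.36 CPM in the other E12.5 libraries. In E18.5 ff Hmx3 had no counts, so no fold is given for it. Opposite effects of at least 1.5-fold at both stages on a well-measured gene were clearest for Sall1 and Fabp3. Sall1, a zinc finger factor gene of progenitors, had 135 to 153 CPM in E12.5 ff and 83.6 to 92.9 CPM in dcKO. By E18.5, ff had 31.3 to 39.4 CPM and the libraries labelled dcKO 46.3 to 60.6 CPM (interaction 1.33, SE 0.13, adjusted p = 3.2e-05 in edgeR).

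Fabp3, a fatty acid binding protein gene, had 8.43 to 10.4 CPM in E12.5 ff and 14.3 to 14.9 CPM in dcKO. Its E18.5 level was 46.6 to 59.1 CPM in ff and 27.1 to 31.0 CPM in the libraries labelled dcKO (interaction -1.42, SE 0.13, adjusted p = 3.2e-05 in edgeR). Slc30a10, a manganese exporter gene, was unlike both in that its difference lay at E12.5. It had 35.0, 33.5 and 23.4 CPM in E12.5 ff and 11.99, 12.6 and 11.6 CPM in dcKO, but 25.9 to 29.2 CPM in E18.5 ff and 29.6 to 32.7 CPM in the libraries labelled dcKO (interaction 1.51, SE 0.15, adjusted p = 4.7e-05 in edgeR). The 3 genes passed in all 30 settings. Exons of Gli3, Eomes, Notch1, Notch2, Fdft1, Hmgcs1, Kif20a, Timeless, Fabp3, Slc30a10, Six3, Jun, Fgfr3, Dtx3l, Ndufb8 and Sbno1, among others named, overlap those of another gene in GENCODE M21, and the strand used for counting is not given in the sources used here, so their counts can include reads of that neighbour.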

How the data were processed

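Per the labels, RNA of 14 embryonic forebrain samples (RNeasy Mini Kit) was made into TruSeq Stranded mRNA libraries. The submitters' processing notes name STAR, RSEM, Trim Galore and DESeq2; versions, genome build, annotation and counting strand are not given in the sources used here. The expected counts were deposited by the authors as unnormalized RSEM estimates per gene, and TPM were deposited by the authors from the same step. Groups came from the stage of each table and the genotype word of each column; library names in many sample descriptions belong to a sample of another group. Replicate numbers are those in the column names.

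The 2 count tables were joined on 56941 gene IDs (56131 with a symbol, from the authors' deposited table), rounded, filtered with filterByExpr, scaled by TMM and fitted as 4 groups in 1 model with edgeR 4.0.16 (R 4.3.3; robust quasi-likelihood F test, two-sided, 10 residual degrees of freedom). The Benjamini-Hochberg adjustment ran over 19327 genes, with a threshold of 0.05. CPM are per 1000000 scaled counts. The steps were tested on simulated data with interactions added to genes of at least 1 CPM. Of 100 genes changed 1.5-fold 29 were called, and of 100 changed 2-fold 65. Of 18773 unchanged genes 4 were called. A gene not called can therefore still hold a change of that size. Depths of 4.92 M to 82 M counts (M, 1000000) limit scarce genes most in the 2 shallow libraries.

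The comparison, the 37 gene lists and the named genes were chosen with earlier results of these data known. Named were Sbno1, Trp53 and Emx1, and among calls with at least 1 CPM in the highest group and no predicted gene or pseudogene, the 10 with the lowest p and the 6 with the largest interaction per direction, the 6 with the lowest p among 1.5-fold opposite effects, and up to 3 called members per list. Not all are printed. Other list members given with a value stand outside that rule and were picked after their values were seen. Lens markers were also chosen after seeing the data. Some genes that this rule names or the lists hold are not reported here.

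Alternatives were DESeq2 1.42.0 size factors and its Wald test, upper quartile scaling, TMM within each stage, limma-voom (limma 3.58.1), a mean of at least 1 CPM, no filter, sex as a covariate, male libraries alone, shallow libraries left out, erythroid, Y, Xist and mitochondrial genes removed, a length trend removed (spline with 5 degrees of freedom), log2(TPM + 1) in limma, a 1.5-fold threshold, and each library left out. Added after seeing the data were leaving out the shallow libraries with E18.5 dcKO replicate 12, and summing or leaving out E12.5 dcKO replicates 6 and 10. Promoter motifs were searched in RefSeq sequences of GRCm38.p6. The authors' deposited E18.5 comparison table was not used.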

Additional observations from a re-analysis of the deposited data

Results flagged for a closer look

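The dcKO minus ff effect differed between E18.5 and E12.5 for 3195 genes in edgeR's test of the interaction itself (adjusted p under 0.05).

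Of 222 groups of 4 E18.5 libraries tested over the named genes, 12 had 1 library far from the other 3, where chance gives about 1 in 20. The high values were 510 CPM of Hmgcs1 in dcKO replicate 12 (others 458 to 464), 5.66 CPM of Ifit3b in dcKO replicate 3 (others 0.38 to 0.74), 90.4 CPM of Ndufb8 in dcKO replicate 3 (others 67.6 to 71.1) and 2.43 CPM of Sptbn5 in the shallow dcKO replicate 2 (others 0.36 to 0.53). In ff they were 129 CPM of Pou3f2 (others 116 to 117) and 311 CPM of Reln (others 259 to 264), both in replicate 8, and 177 CPM of Gja1 in replicate 18 (others 135 to 139). The low values were all in libraries labelled dcKO. In replicate 2 they were 18.1 CPM of Ston2 (others 20.7 to 21.1), 37.9 CPM of Slc4a4 (others 42.5 to 43.3) and 72.1 CPM of Ndrg1 (others 92.4 to 94.7). In replicate 3 they were 29.6 CPM of Slc30a10 (others 32.5 to 32.7) and 35.8 CPM of Nr4a3 (others 39.4 to 40.0).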

How the results depend on the processing

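No paired analysis was possible because the groups share at most 1 replicate number and embryos of different age cannot be the same animal. Of 109 named genes called, 89 stayed past the threshold in all 14 fits with 1 library left out and 57 in every setting. Total calls ranged from 1690 to 3307 with 1 library left out, higher calls from 674 to 1402 and lower calls from 1016 to 1957; the fewest came without E12.5 dcKO replicate 10 (1690) or 6 (1733; 694 higher, 1039 lower). With these 2 summed there were 1700 (682 higher, 1018 lower), and without both 407 (169 higher, 238 lower; 3591 at an unadjusted p under 0.05), where Crybb3 and Cryba4 turned to 0.44 and 0.088; both hold fewer E12.5 dcKO libraries. A 1.5-fold threshold left 1268 (703 higher, 565 lower). Under log2(TPM + 1) in limma, 448 were lower and 1982 higher, so 81.6% were higher against 43.1%; all effects shifted by a median of 0.18, 32 calls changed sign, and Emx1 passed (adjusted p = 0.024 in limma). The cause was not tested. DESeq2 size factors gave 50.5% higher and TMM within each stage 50.6%. DESeq2's Wald test called 4029 and limma-voom 3545. Depth limits scarce genes in the 2 shallow libraries; without both there were 3310 calls.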
